A study of Arabidopsis thaliana with 8 samples.

Results

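The genes described here are 4 late enzymes of anthocyanin biosynthesis in Arabidopsis thaliana, TT3 (AT5G42800, also called DFR), UGT75C1 (AT4G14090), UGT79B1 (AT5G54060, also called UF3GT) and A5G6MaT (AT3G29590, also called AT5MAT). They were chosen by gene, with earlier results of these data known. Each is read by 1 probe set among the 22746 of the ATH1 array, so 4 probe sets were followed. Each probe set is assigned to 1 gene by the platform annotation: 249215_at to TT3, 245624_at to UGT75C1, 248185_at to UGT79B1 and 256924_at to A5G6MaT.

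Anthocyanins are the red to purple pigments of plant vacuoles, and seedlings are known to make them under strong light, sugar supply and shortage of nutrients. The early enzymes of the pathway build flavonoid precursors that flavonols share, whereas the late enzymes commit them to pigment and attach sugars and acyl groups to it. TT3 is dihydroflavonol reductase, the first enzyme of the late part. UGT79B1 adds a xylose to the glucose already attached to the pigment, UGT75C1 adds a glucose at another position, and A5G6MaT adds a malonyl group to the glucose placed by UGT75C1. The late genes are known targets of a complex of MYB, bHLH and WD40 proteins, of which the MYB protein PAP1 is the best known member.

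The data are 8 arrays of whole wild type Col-0 seedlings, 1 array for each of 4 conditions in each of 2 experiments, so that n = 2 for every condition. FN seedlings grew in full nutrition medium with 3 mM sulfate. The other seedlings grew first in 150 µM sulfate, were moved on day 7 into medium with 0 µM sulfate for 48 h (-S), and were in part given 500 µM sulfate for 30 min (30' S) or 3 h (3 h S). All cultures held 100 to 120 seeds in 30 mL at 22 °C, and seedlings were 9 days old. The study's list of media gives less nitrate and ammonium salt for the sulfate-free medium than for FN, so lower sulfate and lower nitrogen cannot be told apart in any value over FN, whereas -S, 30' S and 3 h S seedlings shared their medium before resupply. The experiments are described as biological replicates. P-values of the fit with an experiment block rest on how far condition differences varied between the experiments. That spread is shared over the 4 conditions and, in part, over all probe sets. In whole seedlings, a change in the number of cells of a type and in the RNA per cell cannot be told apart.

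Values are MAS 5.0 intensities that were scaled per array, with array medians between 41.9 and 47.6. A floor for low signals was set on each array at the rank given by its share of probe sets called absent, between 17.2 and 20.3 in experiment 1 and between 10.9 and 13.5 in experiment 2. It stands in for detection calls, and the call of a single probe set can differ from it. The sulfate starvation genes were higher in -S than in FN. SULTR1;2, a root sulfate transporter, was at 102 (FN) against 1653 (-S) in experiment 1 and 85.2 against 1413 in experiment 2. The 4 probe sets of this group were named through a study table that lists strong rises of experiment 1. Their rise is thus not an independent check of the labels. Of the tissue markers, RCA (Rubisco activase, green shoot; 798 to 2148) and PYK10 (a root beta-glucosidase; 2701 to 3694) were above the floor on all 8 arrays. The other green shoot and root markers and the maturing seed markers had no probe set named here.

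The signals of TT3 were 20.9 in FN, 181.7 in -S, 309.9 in 30' S and 257.2 in 3 h S in experiment 1. In experiment 2 they were 31.6, 103.7, 90.8 and 127.9 in the same order. Both FN signals of this reductase lay below all 6 signals of seedlings that had been starved, and the FN signal of experiment 1 was just above its floor of 20.3. As means, TT3 stood at 26.25 ± 7.57 in FN, 143 ± 55.15 in -S, 193 ± 91.4 in 3 h S and 200.3 ± 155 in 30' S (SD, n = 2). The last 3 of these levels overlap in their single values and have no order beyond their spread.

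For UGT75C1, the glucosyltransferase, experiment 1 gave signals of 4.7 in FN, 69.2 in -S, 109.5 in 30' S and 63.9 in 3 h S. Experiment 2 gave 16.1, 49.1, 35.3 and 47.8. FN was again the lowest condition with no overlap, and the FN signal of experiment 1 was below its floor. The means of UGT75C1 were 10.4 ± 8.06 in FN, 55.9 ± 11.4 in 3 h S, 59.15 ± 14.2 in -S and 72.4 ± 52.5 in 30' S (SD, n = 2), and those of 3 h S, -S and 30' S overlap.

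The xylosyltransferase gene UGT79B1 had signals of 22.9 (FN), 89.2 (-S), 191.7 (30' S) and 103.1 (3 h S) for experiment 1. The corresponding signals of experiment 2 were 20.1, 56.5, 63.9 and 73.0. Its FN signals were the closest pair among the 4 genes relative to their mean, at 21.5 ± 1.98 (SD, n = 2), and all other signals were at least 56.5. Its mean was 72.85 ± 23.1 in -S, 88.05 ± 21.3 in 3 h S and 128 ± 90.4 in 30' S, and these 3 conditions overlap.

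A5G6MaT, the malonyltransferase gene, had the dimmest probe set. Experiment 1 gave signals of 12.5 (FN), 17.8 (-S), 40.0 (30' S) and 23.1 (3 h S) for it, and experiment 2 gave 7.9, 15.1, 19.0 and 22.1. Both FN signals and the -S signal of experiment 1 were below the floor of their array, so most of this profile lies close to background. A5G6MaT entered the fits below only because its other arrays reached the floor. The FN signals were still the lowest within and across experiments, with means of 10.2 ± 3.25 in FN, 16.45 ± 1.91 in -S, 22.6 ± 0.707 in 3 h S and 29.5 ± 14.85 in 30' S (SD, n = 2). The signals of -S and 3 h S did not overlap, and those of 30' S overlapped with 3 h S only.

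**Figure D1:**
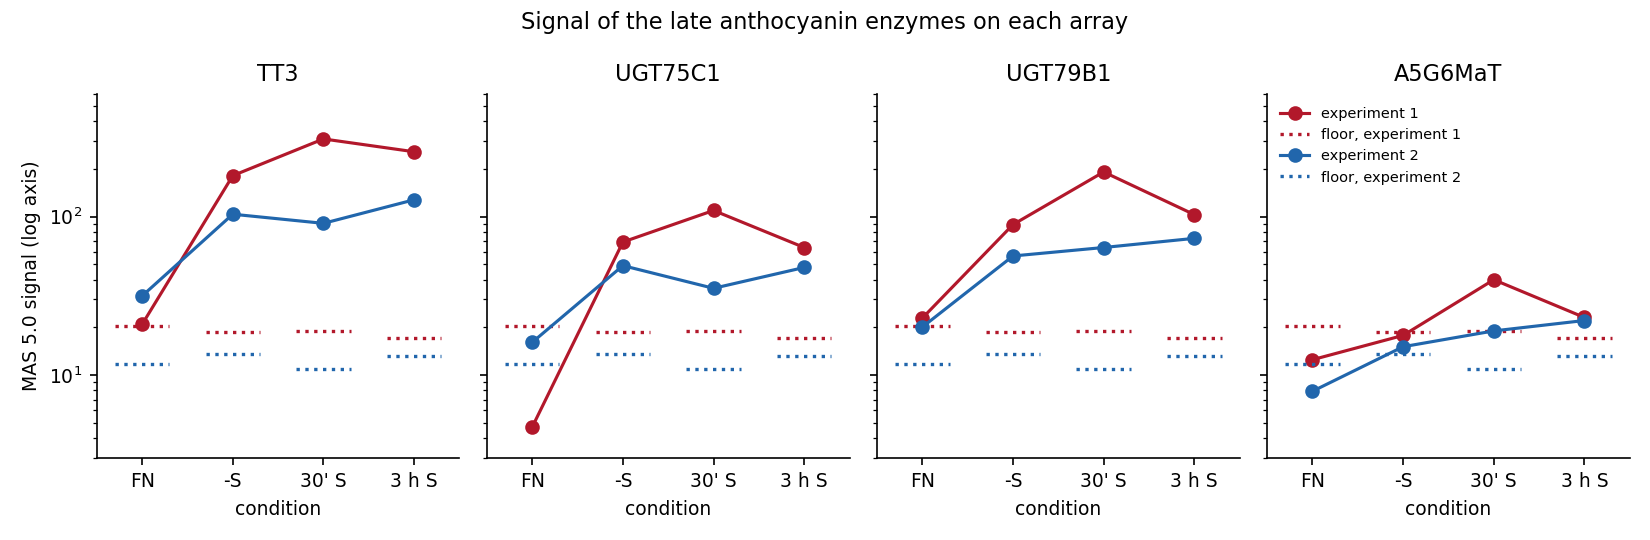
Signal of each gene (log axis) in the 4 conditions, with experiment 1 in red, experiment 2 in blue, 1 array per point, and dotted lines for the floor of each array. For all 4 genes the 6 points right of FN lie above both FN points, and the highest point is 30' S of experiment 1.

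All 4 genes had both FN signals below the 6 signals of the seedlings that had been starved. This holds for 10.0% of the 17138 probe sets that reached the floor on at least 2 arrays. The 4 probe sets belong to 1 pathway and were chosen with earlier results of these data known. This share and those below thus set a scale and are no test of the set. The highest of the 8 signals was that of 30' S in experiment 1 for all 4 genes, and for 15.7% of the probe sets. In each of -S, 30' S and 3 h S the signal of experiment 1 was above that of experiment 2 for all 4 genes, and 27.6% of probe sets showed the same in all 3 conditions. The gap was widest in 30' S, where experiment 1 exceeded experiment 2 by 3.41-fold for TT3, 3.10-fold for UGT75C1, 3.00-fold for UGT79B1 and 2.11-fold for A5G6MaT. In FN, by contrast, TT3 and UGT75C1 were lower in experiment 1 (ratios of 0.661 and 0.292), and UGT79B1 and A5G6MaT were higher (1.14 and 1.58).

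The comparison of -S with FN asks what starvation did to these transcripts. Within experiments 1 and 2, -S over FN was 8.69 and 3.28-fold for TT3 and 3.90 and 2.81-fold for UGT79B1. For UGT75C1 it was 3.05-fold in experiment 2 and, with the FN signal of experiment 1 replaced by its floor, at least 3.41-fold in experiment 1. A5G6MaT had signals 1.42 and 1.91 times those of FN, with no fold against the floor in experiment 1, where both signals were below it, and at least 1.29-fold in experiment 2. By the study's kind of rule, a ratio above 2 in both experiments where -S itself reaches the floor, 3 of 4 genes passed, namely TT3, UGT75C1 and UGT79B1, against 1.49% of the 15088 probe sets that could pass.

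The 17138 probe sets were then fitted together in limma on log2(signal + 16), with condition terms and a block for experiment. Folds on this scale understate the change of dim probe sets. In -S over FN the log2 fold change was 1.88 ± 0.40 for TT3 (limma, adjusted p = 0.0837), 1.53 ± 0.39 for UGT75C1 (adjusted p = 0.118), 1.22 ± 0.28 for UGT79B1 (adjusted p = 0.101) and 0.31 ± 0.18 for A5G6MaT (adjusted p = 0.357; SE, n = 2 per condition). None of the 4 passed the limit of 0.05 after Benjamini-Hochberg adjustment over all probe sets, against 0.875% of probe sets called higher. Without adjustment 3 of 4 had p below 0.05 in limma, and 0 of 4 in the methods' t-test. Over all 17138 probe sets, in either direction, 3623 and 531 did. By size of the log2 fold change, TT3 ranked 93, UGT75C1 138, UGT79B1 202 and A5G6MaT 3400 of the 17138. Leaving out the FN array of experiment 2 gave 3 calls, of TT3, UGT75C1 and UGT79B1, but in that fit 2734 of all 17138 probe sets were called higher, against 150 in the fit of all arrays.

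**Figure D2:**
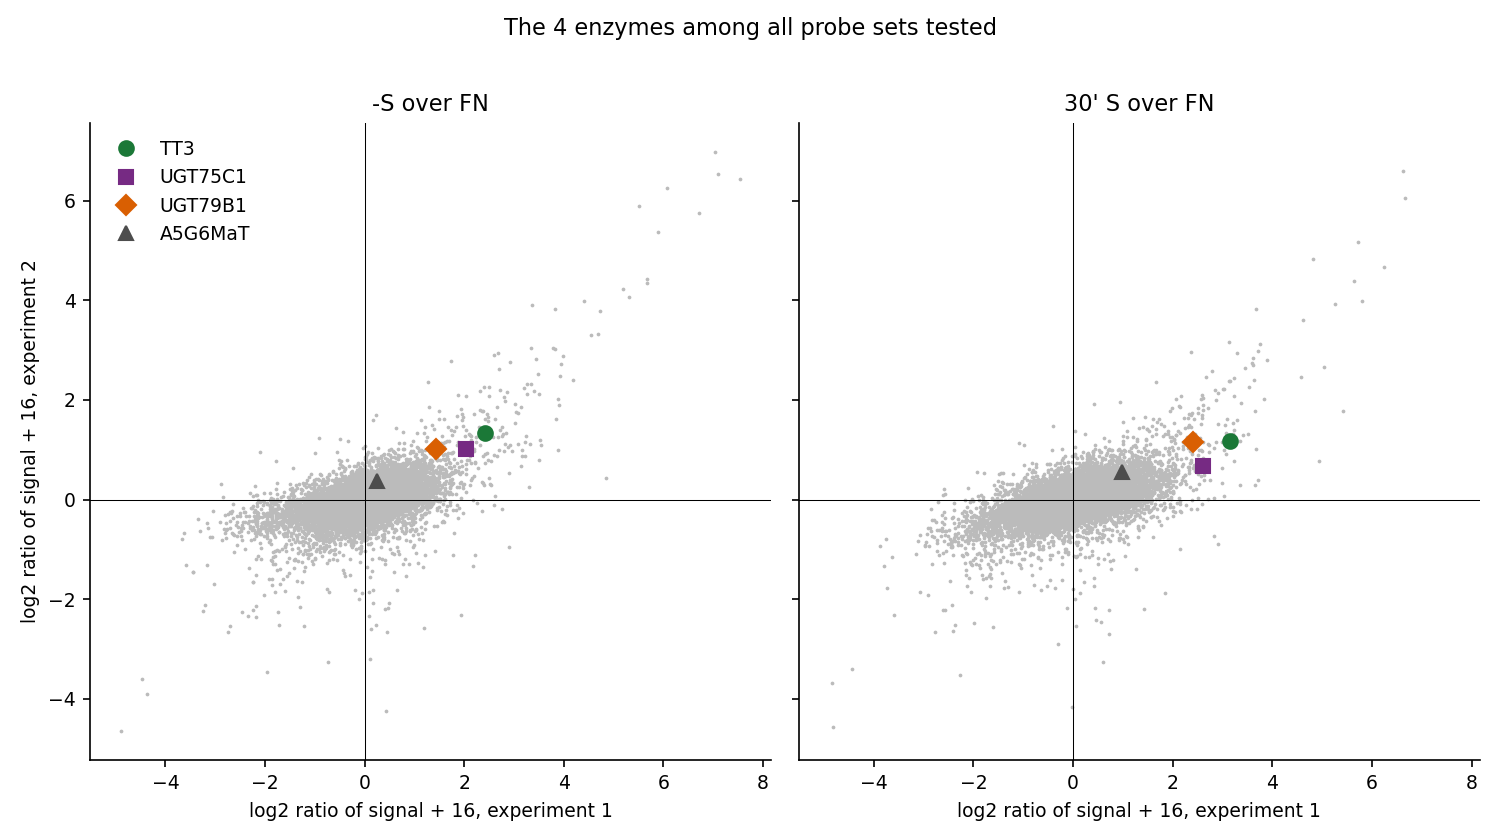
Log2 ratio of signal + 16 over FN in experiment 1 (horizontal) and experiment 2 (vertical) for -S (left) and 30' S (right), with all 17138 probe sets tested in grey. TT3, UGT75C1 and UGT79B1 lie at the upper right edge of the cloud with larger ratios in experiment 1, and A5G6MaT lies inside it.

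The ratios over FN 30 min after resupply, which share the FN arrays with the ratios above, were the largest in experiment 1 for all 4 genes. Signals of 30' S over FN were 14.8 and 2.87-fold for TT3 and 8.37 and 3.18-fold for UGT79B1 in experiments 1 and 2. They were at least 5.39-fold (against the floor) and 2.19-fold for UGT75C1, and at least 1.97 and 1.62-fold (both against the floor) for A5G6MaT. All 4 genes passed the rule of a ratio above 2 in both experiments, against 1.67% of probe sets, but the ratios of A5G6MaT itself, 3.20 and 2.41, are taken over FN signals below the floor.

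UGT79B1 rose in 30' S over FN by a log2 fold change of 1.78 ± 0.28 (SE, n = 2 per condition; limma, adjusted p = 0.0339), higher in both experiments. It was the only call among the 4 genes in this comparison, where 1.19% of probe sets were called higher. The log2 fold change was 2.15 ± 0.40 for TT3 (limma, adjusted p = 0.0538), 1.64 ± 0.39 for UGT75C1 (adjusted p = 0.0821) and 0.76 ± 0.18 for A5G6MaT (adjusted p = 0.0841). The call of UGT79B1 was lost without the 30' S array of experiment 1, which left a log2 fold change of 1.27 (limma, adjusted p = 0.207), and without either -S array or either 3 h S array (adjusted p of 0.0884 and 0.11), which enter through the spread. Leaving out the FN array of experiment 2 gave 4 calls with 20.1% of all probe sets called higher, and leaving out that of experiment 1 gave 2, of TT3 and UGT79B1, with 1.35%.

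After 3 h of resupply the genes were still above FN. Signals of 3 h S over FN were 12.3 and 4.05-fold for TT3, 4.50 and 3.63-fold for UGT79B1, at least 3.15-fold and 2.97-fold for UGT75C1, and at least 1.14 and 1.89-fold for A5G6MaT, in experiments 1 and 2. In this comparison 3 of 4 genes passed the rule of a ratio above 2 in both experiments, all but A5G6MaT, against 1.27% of probe sets. The log2 fold change was 2.24 ± 0.40 for TT3 (limma, adjusted p = 0.0707), 1.47 ± 0.39 for UGT75C1 (adjusted p = 0.147), 1.46 ± 0.28 for UGT79B1 (adjusted p = 0.0815) and 0.56 ± 0.18 for A5G6MaT (adjusted p = 0.195). None passed the limit, with 0.414% of probe sets called higher. All 4 had an unadjusted p below 0.05 in limma, and 0 in the methods' t-test, against 3192 and 379 of all 17138 probe sets in either direction. Without the FN array of experiment 1 there was 1 call, of TT3, with 0.899% of probe sets called higher. Without that of experiment 2 there were 3, of TT3, UGT75C1 and UGT79B1, with 15.5%.

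Since the starved and resupplied seedlings shared their history, the mean of -S, 30' S and 3 h S was also set against FN, a contrast added after the data were seen. UGT79B1 rose by a log2 fold change of 1.49 ± 0.23 (limma, adjusted p = 0.0264) and TT3 by 2.09 ± 0.33 (adjusted p = 0.0267), each higher than FN on 6 of 6 arrays. UGT75C1 stood at 1.55 ± 0.32 (adjusted p = 0.0577) and A5G6MaT at 0.55 ± 0.15 (adjusted p = 0.0948). Thus 2 of 4 genes were called, against 1.50% of probe sets called higher. Both calls were lost when either -S array or either 3 h S array was left out, with no block for experiment (limma, adjusted p of 0.102 for TT3 and 0.12 for UGT79B1), with no filter on low signals (0.113 and 0.108) and in the methods' t-test (0.106 and 0.0942). Without the 30' S array of experiment 1 only UGT79B1 was called, and without the FN array of experiment 1 only TT3. UGT75C1 was called as well without the 30' S array of experiment 2, with 0.683% of probe sets called higher, and without the FN array of experiment 2, with 19.3%.

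**Figure D3:**
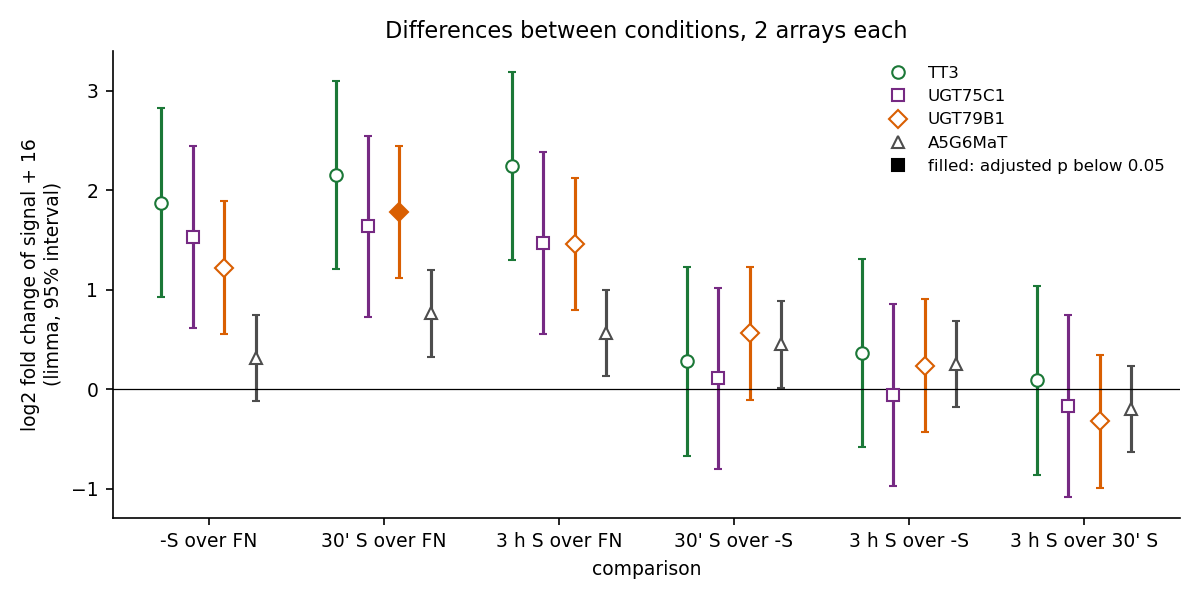
Log2 fold change of signal + 16 with its 95% interval (limma, 2 arrays per condition) for each gene in 6 comparisons. Filled symbols passed an adjusted p of 0.05, and UGT79B1 in 30' S over FN is the only one. In the 3 comparisons without FN the intervals are centred between -0.32 and 0.56, and all but that of A5G6MaT in 30' S over -S include 0.

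The comparisons among -S, 30' S and 3 h S followed seedlings after resupply. In the paper's methods, some -S flasks were harvested when the other starved flasks were opened. These were closed again with nothing added, or with potassium sulfate or, as a control, potassium chloride added. No array of these data is labelled as given potassium chloride or as opened with nothing added. In ratios over -S, sulfate, added potassium, flask opening and elapsed time thus cannot be told apart. In 3 h S over 30' S, time with sulfate and time since flask opening cannot be told apart. In 30' S over -S the log2 fold change was 0.28 (95% interval -0.67 to 1.23) for TT3, 0.11 (-0.80 to 1.02) for UGT75C1, 0.56 (-0.11 to 1.23) for UGT79B1 and 0.45 (0.01 to 0.88) for A5G6MaT. None of the 4 was called (limma, adjusted p = 0.999 for each), and the share of all probe sets called higher was 0%. A5G6MaT alone had an unadjusted p below 0.05 in limma, and none had one in the methods' t-test. Over all 17138 probe sets, in either direction, 509 and 252 had one. The signals within an experiment showed 30' S over -S ratios of 1.71 and 0.876 for TT3, 1.58 and 0.719 for UGT75C1, 2.15 and 1.13 for UGT79B1, and 2.25 and 1.26 for A5G6MaT. In experiment 1 the 4 signals were thus higher after 30 min, whereas in experiment 2 TT3 and UGT75C1 were lower.

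In 3 h S over -S the log2 fold change was 0.37 (95% interval -0.58 to 1.31) for TT3, -0.06 (-0.97 to 0.85) for UGT75C1, 0.24 (-0.43 to 0.90) for UGT79B1 and 0.25 (-0.18 to 0.69) for A5G6MaT. Adjusted p lay between 0.619 and 0.967 (limma), so none of 4 was called, with 0.735% of probe sets called higher. An unadjusted p below 0.05 was found for 0 of 4 in limma or in the methods' t-test. Over all 17138 probe sets, in either direction, it was found for 2368 and 706. Ratios within experiments 1 and 2 were 1.42 and 1.23 for TT3, 0.923 and 0.974 for UGT75C1, 1.16 and 1.29 for UGT79B1, and 1.30 and 1.46 for A5G6MaT. No signal of these enzymes was thus below 0.923 times its starved level after 3 h of resupply, although the interval of UGT75C1 reaches down to -0.97.

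The sulfate starvation genes behaved otherwise over the same 3 h. They were chosen with earlier results of these data known. The paper places SULTR1;2 and APR3 in a class defined by a rise in -S and a fall on resupply. Their fall is thus not an independent finding. SULTR1;2 fell by 2.20 on the log2 scale (SE 0.15; limma, adjusted p = 0.002), APR3, an enzyme of sulfate reduction, by 3.52 (SE 0.37; adjusted p = 0.00887), and LSU1, a marker of sulfur shortage, fell by 3.25 (SE 0.29; adjusted p = 0.00475). SDI1, another such marker, fell by 3.94 (SE 0.35; limma, adjusted p = 0.00477). All 4 fell in both experiments. The lower bounds of the 4 anthocyanin genes, -0.97 at the lowest, lie above these estimates. For dim enzymes these bounds cannot show a smaller fall, because the offset of 16 limits how far a dim signal can fall. In -S A5G6MaT was at 17.8 and 15.1 and UGT75C1 at 69.2 and 49.1, against 1780 and 1557 for APR3. Signal ratios of 3 h S over -S hold no offset. They were 0.923 to 1.46 for the enzymes and 0.0542 to 0.210 for the sulfate starvation genes. The difference between the gene groups was not tested.

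In 3 h S over 30' S the log2 fold change was 0.09 (95% interval -0.86 to 1.04) for TT3, -0.17 (-1.08 to 0.74) for UGT75C1, -0.32 (-0.99 to 0.34) for UGT79B1 and -0.20 (-0.63 to 0.24) for A5G6MaT. No gene was called (limma, adjusted p from 0.654 to 0.944) where 0.385% of probe sets were called higher. Again 0 of 4 had an unadjusted p below 0.05 in limma or in the methods' t-test, against 2451 and 719 of all 17138 probe sets. The experiments moved in opposite ways: ratios in experiment 1 were 0.830, 0.584, 0.538 and 0.578, and in experiment 2 they were 1.41, 1.35, 1.14 and 1.16, in the order TT3, UGT75C1, UGT79B1 and A5G6MaT. A lower signal at 3 h in experiment 1 and a higher one in experiment 2 was found for 15.5% of probe sets. The high 30' S array of experiment 1 is the reference of these ratios and also the top of all 4 profiles.

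**Figure D4:**
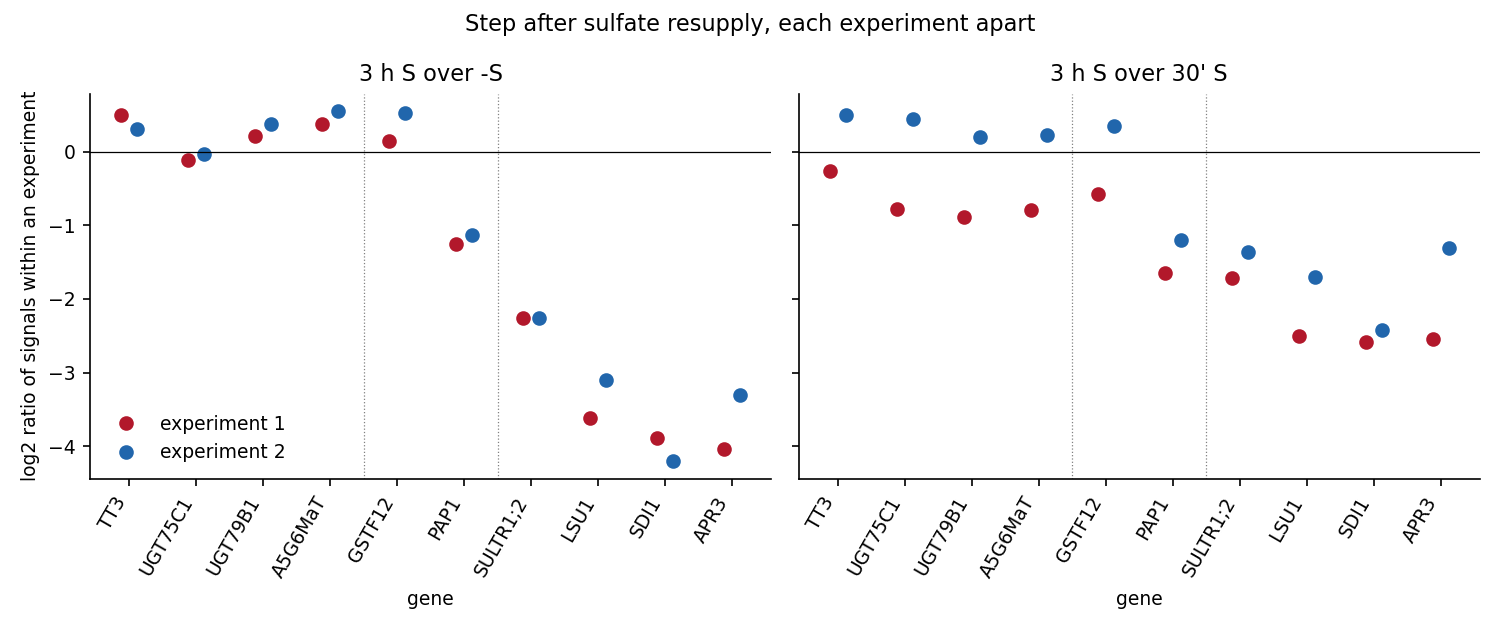
Log2 ratio of signals within experiment 1 (red) and experiment 2 (blue) for 3 h S over -S (left) and 3 h S over 30' S (right). On the left the 4 enzymes and GSTF12 lie between -0.115 and 0.55 while PAP1 and the 4 sulfate starvation genes lie below -1. On the right the enzymes lie below 0 in experiment 1 and above it in experiment 2.

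Of 7 other late anthocyanin genes listed, 4 had a named probe set. GSTF12, a glutathione transferase needed to bring anthocyanin into the vacuole, was at 7.7 (FN), 125.3 (-S), 205.2 (30' S) and 137.8 (3 h S) for experiment 1. In experiment 2 it was at 19.4, 68.9, 77.6 and 98.6. Its profile is like that of TT3 in having FN lowest and 30' S of experiment 1 highest. Where TT3 fell from -S to 30' S in experiment 2 (ratio 0.876), GSTF12 rose (1.13). It rose in 30' S over FN by a log2 fold change of 2.31 ± 0.38 (limma, adjusted p = 0.0369), the only call among the 4 in that comparison, and stood at 1.92 ± 0.38 in -S over FN (adjusted p = 0.0686). Its probe set and that of BGLU10 were named through a table that lists strong rises of experiment 1, so neither is independent evidence of a rise. UGT78D2, which attaches the first glucose to anthocyanidins and flavonols, was at 113.5 (FN), 139.2 (-S), 197.3 (30' S) and 161.7 (3 h S) for experiment 1. The other experiment gave 116.7, 110.5, 158.0 and 172.8, so that both resupplied signals were above FN and -S in each. UGT78D2 was not called, with a log2 fold change of 0.10 ± 0.16 in -S over FN (limma, adjusted p = 0.747) and of 0.56 ± 0.16 in 30' S over FN (adjusted p = 0.105). SCPL10, an acyltransferase of the pathway whose probe set may read related genes too, and BGLU10, a glucosyltransferase acting on anthocyanin, stood at 0.60 ± 0.17 (adjusted p = 0.141) and 0.97 ± 0.36 (adjusted p = 0.202) in -S over FN.

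Of 5 early flavonoid genes only CHIL, a chalcone isomerase-like protein, had a named probe set, with 44.3 (FN) and 60.5 (-S) in experiment 1 against 101 and 102 in the other (log2 fold change 0.18 ± 0.18, limma, adjusted p = 0.594). In the flavonol branch 2 of 7 genes were tested, UGT78D1 and UGT89C1, which glycosylate flavonols, and 0 passed in limma in -S, 30' S or 3 h S over FN. In -S over FN UGT78D1 stood at -0.38 ± 0.18 (limma, adjusted p = 0.276) and UGT89C1 at 0.45 ± 0.26 (adjusted p = 0.345). BAN, the first enzyme of the seed coat tannin branch, was below the floor on all 8 arrays, at 0.6 to 3.2. TT12, a transporter of tannin precursors named through the same table of rises, was at 5.4 and 15.4 in FN and reached 21.1 and 25.9 in -S (log2 fold change 0.61 ± 0.17, limma, adjusted p = 0.14). After resupply TT12 was at 6.5 and 10.2 in 30' S, both below the floor (30' S over -S -0.70 ± 0.17, limma, adjusted p = 0.999). Its FN signal of experiment 1 was below the floor too, and 21.1 in -S was just above its floor of 18.8. These values thus lie close to background.

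Among 9 activators of the pathway 7 had a named probe set and 4 were tested. PAP1 had signals of 5.8 (FN), 379.3 (-S), 501.5 (30' S) and 159.3 (3 h S) for experiment 1. The signals of experiment 2 were 5.1, 95.7, 100.9 and 43.7. It rose in -S over FN by a log2 fold change of 3.29 ± 0.45 (limma, adjusted p = 0.0182), as the only call among the 4. Like the enzymes it was higher in experiment 1 than in experiment 2 in -S, 30' S and 3 h S. Both FN signals of PAP1 were below the floor, and it was tested only because its other arrays reached it. In 3 h S over -S PAP1 stood at -1.04 ± 0.45 (adjusted p = 0.373), with ratios of 0.420 and 0.457, where the ratios of the 4 enzymes lay between 0.923 and 1.46. PAP2, a close relative of PAP1, was at 2.2, 505.6, 541.1 and 193.1 in experiment 1 and at 27.1, 42.5, 57.6 and 11.8 in experiment 2. The other 2 tested activators were not called in -S over FN, with log2 fold changes of 0.18 ± 0.16 for TTG1, the WD40 protein of the complex (limma, adjusted p = 0.528), and 0.31 ± 0.17 for MYB113, a relative of PAP1 (adjusted p = 0.335). TT8, the bHLH partner, MYB114 and TTG2 were below the floor on all 8 arrays.

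For nitrogen, NRT2.1, a nitrate transporter, was the only gene with a named probe set among 6 nitrate-induced genes. It was named through the table that lists strong rises of experiment 1, so its rise there is not independent evidence. It had 45.2, 261.8, 444.6 and 595.4 in experiment 1 and 179.7, 61.7, 89.3 and 136.4 in experiment 2, so that its -S signal was above FN in experiment 1 and below it in experiment 2. The 4 enzymes were above FN in both experiments. RCA was lower in -S than in FN, by 0.44 ± 0.16 on the log2 scale (limma, adjusted p = 0.199). The part of nitrogen supply or of tissue make-up in the ratios over FN was not tested.

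The 3 probe sets with 1 named gene that were most like each enzyme were found by the mean absolute difference over 6 log2 ratios of signal + 16 over FN (3 conditions in 2 experiments), among 9917 probe sets. GSTF12 was the nearest to TT3 at 0.14, followed by AT2G22510 at 0.20 and AT1G68850 at 0.21. UGT75C1 was nearest to LAC3, a laccase, at 0.17, AT1G60730 at 0.19 and PGIP1, a polygalacturonase inhibitor, at 0.20. GSTF12, LAC3 and PGIP1 were named through the table that lists strong rises of experiment 1, so their nearness is not independent evidence. The nearest to UGT79B1 were AT1G11700 at 0.21, BGLU47 at 0.22 and AT2G03200 at 0.23. A5G6MaT, with its small ratios, was nearest to AT5G24010, AT5G03700 and AT5G39090 at 0.11 to 0.12. The signals of AT5G39090 in experiment 1, at 1.6 to 9.3, were all below the floor. Among the enzymes themselves UGT75C1 and UGT79B1 were the closest pair, at 0.32, while TT3 was 0.54 from UGT75C1 and 0.60 from UGT79B1. Many other genes were nearer. Among the 9917, UGT79B1 held place 21 for UGT75C1, and UGT75C1 held place 22 for UGT79B1. TT3 held places 132 and 196 for UGT75C1 and UGT79B1, which held places 46 and 54 for TT3. A5G6MaT, with the smallest ratios, was 0.94 to 1.54 from the other 3, which held places 8748 to 9669 for it.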

How the data were processed

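Total RNA of 8 samples of Col-0 seedlings from liquid culture was hybridised to ATH1 arrays by a service centre. The deposited values are linear intensities (MAS version 5.0 signals), scaled by the authors to an equal 2% trimmed mean of 99.4 on each array, with a target not given in the sources used here. Each floor is the signal at the rank of the array's absent share from the study's list. The number of arrays limits the precision. Conditions and experiment numbers came from the sample titles. Probe sets were named by the platform annotation (13513 with 1 gene, 503 with several) or, for 717, the study's tables; 8013 were unnamed. Gene symbols came from RefSeq. No sequence table was used.

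limma 3.58.1 in R 4.3.3 (lmFit, eBayes) was run on log2(signal + 16) with the experiment as a block, 3 residual and 3.99 prior degrees of freedom, over 17138 probe sets (5608 below the floor on more than 6 arrays were left out), and was tested on simulated data. P-values were adjusted by the Benjamini-Hochberg method. Tables and figures used Python 3.11.15, pandas 2.3.3, numpy 2.4.6 and matplotlib 3.10.9. The methods' t-test had unequal variances and 2 sides. Alternatives were the block, offset, normalization, floor filter, compared conditions alone, and each array left out. The genes named are the 4 enzymes, the genes listed for the pathway and its regulators, and the 3 most like each enzyme. The members and lists were chosen with earlier results of these data known.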

Additional observations from a re-analysis of the deposited data

Results flagged for a closer look

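Signals moved in opposite ways in the 2 experiments in 6 cases, each flagged because the only sample of one experiment went up and that of the other went down; the differences were not tested. For 30' S over -S, the log2 ratio of experiment 1 exceeded that of experiment 2 by 0.96 for TT3 (0.77 against -0.19) and by 1.14 for UGT75C1 (0.66 against -0.48). For 3 h S over 30' S, the log2 ratio of experiment 1 minus that of experiment 2 was -0.76 for TT3 (-0.27 and 0.49), -1.21 for UGT75C1 (-0.78 and 0.44), -1.09 for UGT79B1 (-0.89 and 0.19) and -1.01 for A5G6MaT (-0.79 and 0.22). All 6 involve the 30' S array of experiment 1, on which the 4 genes had their highest signals.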

How the results depend on the processing

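With 2 arrays per condition and signals of A5G6MaT near the floor, single calls are fragile. Over FN, 124 of 252 alternative log2 fold changes of the 4 genes equal the reported value, mostly because the setting changes only the spread or the probe sets tested, and the other 128 kept their direction. Of 444 values in all comparisons, 395 kept direction and side of the limit, 27 lost a call, 15 gained one and 7 reversed. Most of the 395 were not called in the first place. A call could be lost only by UGT79B1 in 30' S over FN (16 alternatives) and by TT3 and UGT79B1 in starved cultures over FN (15 each). More than 1 in 2 of these alternatives lost it. The experiment number marks the experiment in the labels, so the fit has the replicate block. With no replicate block, 0 of 4 genes were called in 30' S over FN and 0 in the mean of starved cultures over FN, against 1 and 2 with it. As a check of that pairing, log2 differences of experiment 1 from experiment 2 had a correlation over probe sets of 0.311 for FN with -S, 0.079 for FN with 30' S, 0.223 for FN with 3 h S and 0.597 to 0.709 among the other conditions.

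In 30' S over FN the call of UGT79B1 was also lost (0 called) with an offset of 1, with no filter on low signals, in the 2 conditions alone with the replicate block and in the methods' t-test, while quantile normalization gave 2 calls. For the mean of starved cultures over FN, an offset of 1 gave 1 call, no filter gave 0 and the methods' t-test 0. Leaving out 1 array gave 0 to 3 called in -S over FN, 0 to 4 in 30' S over FN, 0 to 3 in 3 h S over FN and 0 to 3 for starved cultures over FN. With the ratio taken of signal + 16, 2 genes were above 2-fold in both experiments in 30' S over FN instead of 4, and 2 instead of 3 in 3 h S over FN.

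With 1 array left out, 30' S over -S ran from -0.31 to 0.87 for TT3 and from -0.52 to 0.74 for UGT75C1, and 3 h S over 30' S from -0.50 to 0.68 for TT3, -0.80 to 0.46 for UGT75C1, -0.84 to 0.19 for UGT79B1 and -0.47 to 0.073 for A5G6MaT. The sign turned without the 30' S array of experiment 1 in all of these but 3 h S over 30' S of TT3, which turned when the experiment 1 array of 3 h S was dropped (-0.047) or that of 30' S in experiment 2 (-0.50). Over all probe sets, calls in both directions numbered 243 in -S over FN (0 to 294 in other settings, 47 to 4860 with 1 array left out), 313 in 30' S over FN (0 to 360, 22 to 6017), 96 in 3 h S over FN (0 to 120, 0 to 4639), 1 in 30' S over -S (0 to 10, 0 to 8), 182 in 3 h S over -S (0 to 1067, 6 to 1195), 94 in 3 h S over 30' S (0 to 1234, 0 to 1299) and 413 for starved cultures over FN (18 to 488, 103 to 5731). The methods' t-test gave the 0 in the first 6. The cause of these shifts was not tested.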

Other observations

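UGT75C1 and UGT79B1 belong to the large family of UDP-glycosyltransferases, which attach sugars to plant metabolites and hormones. The family was looked at after their values were known, through the 41 tested probe sets whose annotation gives a UGT name, and UGT75C1, whose annotation gives none. In the mean of starved cultures over FN the log2 fold change of UGT84A3, a glucosyltransferase acting on phenolic acids, was 1.65 (limma, adjusted p = 0.0543), followed in size by UGT75C1 and UGT79B1 among these 42. UGT84A3 was at 15.8 (FN), 183.3 (-S), 172.2 (30' S) and 127.3 (3 h S) for experiment 1, and at 54.6, 113.0, 124.1 and 94.4 in experiment 2, so the FN arrays were again the lowest. UGT74D1 rose by 0.74 (limma, adjusted p = 0.0356), from 133.3 and 135.8 in FN to at least 201.0 on the other 6 arrays, in a contrast where 1.50% of all probe sets were called higher. UGT73C1 and UGT73B4 were called too, but their FN signals were between 0.4 and 1.5, below the floor, and they were tested only because their other arrays reached it.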
